A study of Homo sapiens with 6 samples.

Results

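The genes described here are the 4 measured IFIT genes with a known interferon response, IFIT1, IFIT2, IFIT3 and IFIT5, and 3 genes of the same stretch of chromosome 10q23, LIPA, PANK1 and PCGF5. They were chosen by name, and each was taken from the array feature that the platform annotation pairs with that single symbol. All 7 were found, 1 feature each, among 16704 genes measured. The names were picked with results of the knockdown comparison known, because the IFIT genes and several neighbours lay lower in the knockdown clones. Their differences between the groups are therefore given as a description, with a standard error and no p. The study profiled LNCaP, a human prostate cancer line, on Affymetrix HuGene 1.0ST arrays. The first group is 3 MBD2 knockdown clones, stably transfected with a short hairpin RNA against MBD2, and the second is 3 clones with a scrambled hairpin. Both kinds of clone carried the siLentGene-2 vector and had been selected by neomycin resistance, and each array holds cytoplasmic RNA of 1 clone. A difference between groups thus also includes what sets one selected clone apart from another, and no clone was profiled more than once. MBD2 reads methylated CpG dinucleotides and recruits a repressor complex to them.

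IFIT genes are strongly induced by interferon and by viral infection. Their proteins bind foreign RNA in the cytoplasm and block its translation: IFIT1 holds RNA whose cap lacks methylation, IFIT5 holds RNA with a free triphosphate end, and IFIT2 and IFIT3 form complexes with IFIT1. Their promoters carry interferon-stimulated response elements, through which interferon turns them on, and IRF3 can act on them without interferon. The other genes of the stretch have unrelated roles. LIPA encodes the lysosomal acid lipase that frees cholesterol from its esters, PANK1 a kinase for the opening step of coenzyme A synthesis, and PCGF5 a RING finger subunit of variant Polycomb repressive complex 1.

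The promoter sequences of the IFIT genes are shown because they hold a short motif that the windows of LIPA, PANK1 and PCGF5 do not. Each is the 250 bases before an annotated start in RefSeq (GRCh38.p14), 5′ to 3′ on the strand of the gene. Capitals mark matches to the response element core GAAANNGAAA, searched on both strands, and all matches lay on the opposite strand, so they read TTTCNNTTTC. The windows are chr10:89392373-89392622 (plus strand) for IFIT1, chr10:89327747-89327996 and chr10:89332279-89332528 (plus) for IFIT3 starts 1 and 2, chr10:89414318-89414567 (plus) for IFIT5, and chr10:89414680-89414929 (minus) for the LIPA start nearest to IFIT5.
IFIT1: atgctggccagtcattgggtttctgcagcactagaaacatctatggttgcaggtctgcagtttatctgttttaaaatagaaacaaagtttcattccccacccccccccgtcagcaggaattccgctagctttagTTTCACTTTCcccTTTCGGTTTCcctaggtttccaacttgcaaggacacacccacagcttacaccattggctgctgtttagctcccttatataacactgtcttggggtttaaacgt
IFIT3 start 1: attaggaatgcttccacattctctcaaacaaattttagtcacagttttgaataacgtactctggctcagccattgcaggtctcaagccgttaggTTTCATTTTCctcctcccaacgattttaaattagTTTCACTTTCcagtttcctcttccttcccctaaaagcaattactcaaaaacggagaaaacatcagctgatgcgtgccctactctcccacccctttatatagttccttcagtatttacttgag
IFIT3 start 2: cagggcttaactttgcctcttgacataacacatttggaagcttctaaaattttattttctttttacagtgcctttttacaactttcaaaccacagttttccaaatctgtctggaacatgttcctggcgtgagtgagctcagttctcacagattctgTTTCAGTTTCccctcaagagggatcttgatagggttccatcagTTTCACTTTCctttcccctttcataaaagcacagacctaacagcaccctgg
IFIT5: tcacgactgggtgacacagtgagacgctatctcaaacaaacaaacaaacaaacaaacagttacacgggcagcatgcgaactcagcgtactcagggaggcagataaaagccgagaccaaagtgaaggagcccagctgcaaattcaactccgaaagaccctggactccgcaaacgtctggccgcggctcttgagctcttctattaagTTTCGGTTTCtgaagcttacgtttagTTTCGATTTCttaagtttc
LIPA: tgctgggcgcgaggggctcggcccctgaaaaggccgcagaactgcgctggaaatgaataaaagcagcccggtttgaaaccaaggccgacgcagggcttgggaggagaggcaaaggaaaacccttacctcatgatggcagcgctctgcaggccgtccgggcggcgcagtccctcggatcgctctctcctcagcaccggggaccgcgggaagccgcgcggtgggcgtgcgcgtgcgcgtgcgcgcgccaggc

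Each of the 4 IFIT windows held 2 matches that did not overlap. Of 35116 windows of the same length in the table, 3.02% held the core at least once and 0.225% held it 2 or more times. Among the other interferon-stimulated genes listed here, 29 of 66 windows (43.9%) and 26 of 49 genes with a window held it at least once. In IFIT1 the matches ended 106 and 93 bases before the start, and in IFIT5 35 and 9 bases before it. IFIT3 had them 146 and 112 bases before start 1 and 84 and 41 bases before start 2. The 9 windows of LIPA, PANK1 and PCGF5 held none, which says only that these letters are not in those windows. Windows were found for 6 of the 7 members; IFIT2 is the other one. The window of IFIT1B, the IFIT gene that lies between IFIT3 and IFIT1 and is not a member, held no match.

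A CpG, the dinucleotide that MBD2 reads when it is methylated, lay inside 3 of the 8 matches. These were the IFIT1 match TTTCGGTTTC and the IFIT5 matches TTTCGGTTTC and TTTCGATTTC, while the 4 matches of IFIT3 held none. A CpG lay in 10.4% of the matches in all windows. Over the whole window IFIT1 had 4 CpGs, IFIT3 had 5 and 1, and IFIT5 had 14, against a median of 11 over all windows. PCGF5 is the CpG-rich member, with 41 in each of its overlapping windows 1 and 3, 29 in window 2 and 2 in window 4. LIPA had 29, 1 and 16 CpGs at its 3 starts, and PANK1 had 7 and 11. The annotated start of LIPA nearest to IFIT5 lies on the opposite strand, 111 bases beyond the IFIT5 start, so their 5′ ends overlap. Methylation of these CpGs was not measured on these arrays.

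**Figure D1:**
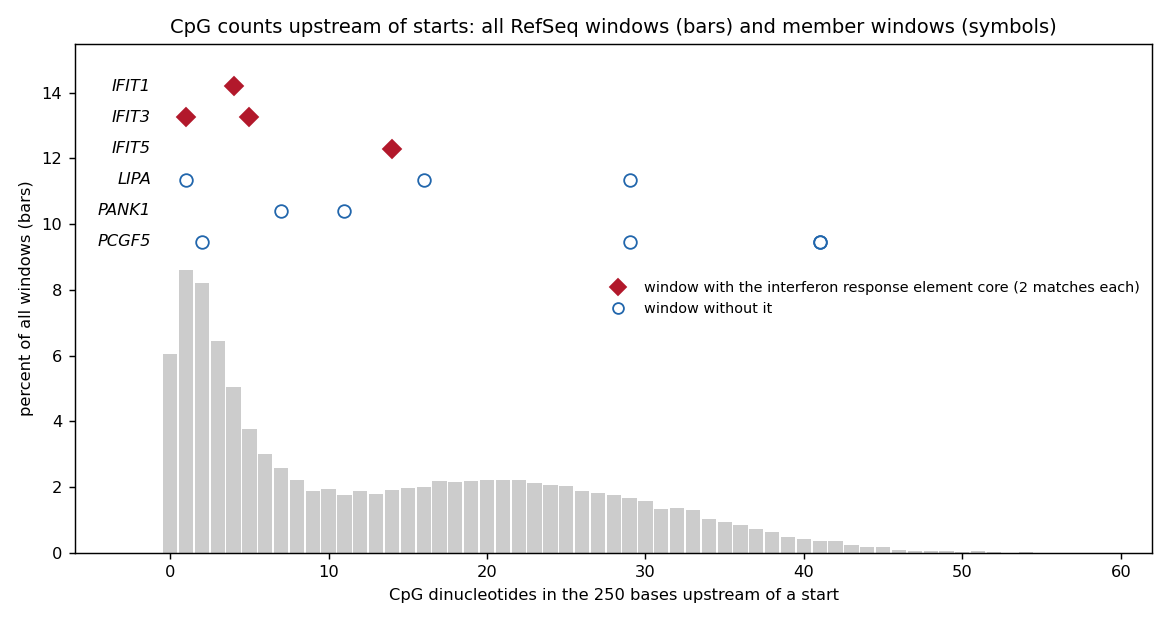
Number of CpG dinucleotides (x axis) in the 250 bases upstream of annotated starts. Grey bars give the percent of all 35116 windows, filled diamonds the member windows with the response element core and open circles those without it; the IFIT windows hold 1 to 14 CpGs and 2 windows of PCGF5, drawn over each other, hold 41.

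The targeted gene and the arrays were checked before the members. MBD2 (feature 8023382) had log2 values of 7.68, 7.84 and 7.81 in knockdown clones 1, 2 and 3, against 8.73, 9.24 and 9.20 in control clones 1, 2 and 3, which leaves the groups well apart, as labelled. The median of each array lay between 6.31 and 6.33. Knockdown clone 1 stood apart, with a narrower spread of values (SD over genes 2.00, against 2.05 to 2.07) and a lower quartile of 4.81 against 4.68 to 4.72, and results are given without it where they rest on it. Of 7 luminal prostate markers 3 were measured here, KLK3, KLK2 and HOXB13, and all were above the upper quartile of all 6 arrays. Of the white blood cell markers PTPRC and CD3E lay below the lower quartile of all 6 arrays, and CD14 and LYZ did not on every array; of the fibroblast markers DCN and LUM did, and the collagen genes COL1A1, COL1A2 and COL3A1 did not. Precision is set by the 3 clones a group, and in RNA from a clone fewer expressing cells and less RNA per cell cannot be told apart.

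IFIT1 (feature 7929065) had log2 values of 4.08, 4.84 and 5.04 in knockdown clones 1, 2 and 3, against 4.93, 5.12 and 5.84 in control clones 1, 2 and 3. Knockdown clone 1 is the low value and control clone 3 the high one, and the groups overlap, since knockdown clone 3 lies above control clone 1. The means were 4.65 ± 0.50 in the knockdown clones and 5.30 ± 0.48 in the controls (SD, n = 3 each), a difference of -0.64 on the log2 scale with a standard error of 0.30, or 64.0% of the control level. Leaving out knockdown clone 1 gave -0.36, and leaving out control clone 3 gave -0.37. Without any other 1 clone it lay between -0.84 and -0.73. Over its 6 arrays IFIT1 ranged across 1.76 log2 units, the widest range of the 7 members.

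IFIT2 (feature 7929047), the partner of IFIT1 and IFIT3 in their complexes, had log2 values of 4.06, 4.16 and 4.39 in knockdown clones 1, 2 and 3, against 4.20, 4.66 and 5.03 in control clones 1, 2 and 3. Control clone 1 lies among the knockdown values, so the groups overlap. The difference was -0.43 with a standard error of 0.20. It was -0.23 without control clone 3, -0.64 without control clone 1, and between these without any other 1 clone. IFIT3 (feature 7929052), which stabilises the binding of IFIT1 to RNA, had 3.63, 3.67 and 3.97 in knockdown clones 1, 2 and 3, against 4.07, 4.55 and 4.40 in control clones 1, 2 and 3. Every knockdown value lies below every control value. The means were 3.76 ± 0.19 in the knockdown clones and 4.34 ± 0.25 in the controls, a difference of -0.58 with a standard error of 0.15 (66.9% of the control level).

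IFIT5 (feature 7929072) had 4.56, 4.91 and 4.82 in knockdown clones 1, 2 and 3, against 5.14, 5.17 and 5.23 in control clones 1, 2 and 3. The groups do not overlap, and the control clones are close together, with an SD of 0.05 against 0.18 in the knockdown clones. Its difference was -0.42 with a standard error of 0.11. It was -0.32 without knockdown clone 1 and between -0.49 and -0.39 without any other 1 clone. All 4 IFIT genes were dim. By mean over the arrays they stood between percentile 16.0 (IFIT3) and 28.7 (IFIT1) of all genes. IFIT3 was below the lower quartile on 6 of 6 arrays, IFIT2 on 5, and IFIT1 and IFIT5 on 1 each. Near the floor of an array log2 differences are compressed, and no detection call was used here. Knockdown clone 1, whose lower quartile is higher than that of the other arrays, had the lowest value of all 6 clones in each of these 4 genes.

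**Figure D2:**
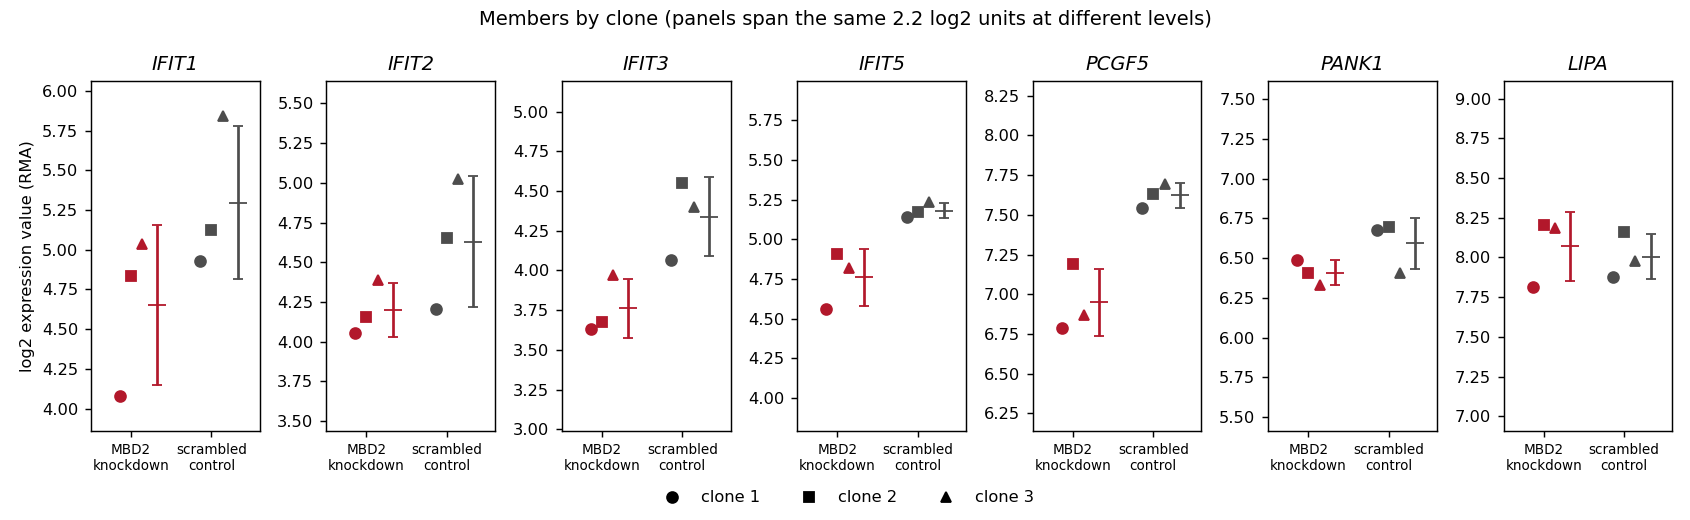
Log2 expression value (y axis) of the 7 members in the knockdown clones (left, red) and the control clones (right, grey), with clone numbers as symbols and mean ± SD beside them (n = 3 each). Each panel spans the same number of log2 units; IFIT3, IFIT5 and PCGF5 show no overlap, and LIPA shows no separation.

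Outside the IFIT genes, PCGF5 (feature 7929132) had the largest difference of the 7 members. Its log2 values were 6.79, 7.19 and 6.87 in knockdown clones 1, 2 and 3, against 7.54, 7.63 and 7.70 in control clones 1, 2 and 3. The groups are apart by more than their spread, with means of 6.95 ± 0.21 in the knockdown clones and 7.62 ± 0.08 in the controls (SD, n = 3 each). The difference was -0.67 with a standard error of 0.12, or 62.7% of the control level, and lay between -0.79 and -0.59 with any 1 clone left out. PCGF5 was of middling brightness, at percentile 65.5 of all genes.

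PANK1 (feature 7934945) had 6.49, 6.40 and 6.33 in knockdown clones 1, 2 and 3, against 6.67, 6.70 and 6.41 in control clones 1, 2 and 3. Control clone 3 lies within the knockdown values, and the difference was -0.19 with a standard error of 0.10. LIPA (feature 7934920) had 7.81, 8.21 and 8.19 in knockdown clones 1, 2 and 3, against 7.88, 8.16 and 7.98 in control clones 1, 2 and 3. It was the 1 member with a positive difference, which was 0.06 with a standard error of 0.13, smaller than its spread among the clones of either group. Leaving out knockdown clone 1 gave 0.19, and leaving out knockdown clone 2 gave -0.0051.

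Of the 7 members 6 averaged lower after knockdown and the median difference was -0.43, where 8566 of all 16704 genes were lower and the median was -0.0043. The median over members was -0.64 without control clone 1 and between -0.52 and -0.36 without any other 1 clone. In 3 of 7 members, IFIT3, IFIT5 and PCGF5, all knockdown values lay below all control values, and 8.87% of all genes did so. In 0 of 7 did all lie above, which 6.57% of all genes did. Since this comparison chose the members, these counts are not read further. In limma's moderated test 0 of the 16704 genes had an adjusted p under 0.05 (0%), and 1568 (9.39%) had an unadjusted p under 0.05. MBD2, the targeted gene, differed by -1.28 with a standard error of 0.14 and did not pass either. A count of 0 past this threshold, here or in a gene list, is therefore not a sign that nothing changed.

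Averaged over the 4 IFIT genes and measured from the mean of the controls, the clones stood at -0.78, -0.47 and -0.31 for knockdown 1, 2 and 3, against -0.28, 0.01 and 0.26 for control clones 1, 2 and 3. Control clone 1 is thus nearly as low as knockdown clone 3, and the distance between control clones 1 and 3 is larger than that between control clone 1 and any knockdown clone. Ordered by this mean, the neighbouring clones knockdown 3 and control 1 cannot be separated, since single IFIT genes differ by up to 0.38 log2 units in control clone 1 and by up to 0.22 in knockdown clone 3 about their mean profile.

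Along the chromosome, 13 measured genes run from LIPA to PCGF5 in RefSeq order, and 12 of them averaged lower after knockdown (median difference -0.37). The 6 that are not members are IFIT1B, the monocarboxylate transporter gene SLC16A12, the cytokinesis kinesin gene KIF20B, the serotonin receptor gene HTR7, RPP30, which encodes a subunit of ribonuclease P, and ANKRD1. KIF20B had log2 values of 7.49, 7.70 and 7.48 in knockdown clones 1, 2 and 3, against 8.02, 8.03 and 7.97 in control clones 1, 2 and 3, a difference of -0.45 with a standard error of 0.09. RPP30 had 7.78, 7.67 and 7.60 in knockdown clones 1, 2 and 3, against 7.95, 8.05 and 8.15 in control clones 1, 2 and 3, a difference of -0.37 with a standard error of 0.09. In both genes the groups do not overlap, where 8.87% of all genes were lower without overlap. Both are bright, at percentiles 74.2 and 75.5 of all genes by mean.

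The other 4 overlapped between groups. IFIT1B differed by -0.19 and SLC16A12 by -0.13, and both were below the lower quartile on all 6 arrays. HTR7 differed by -0.21. ANKRD1 had 4.28, 4.71 and 6.20 in knockdown clones 1, 2 and 3, against 4.50, 5.23 and 6.05 in control clones 1, 2 and 3, a range of 1.92 log2 units over the 6 arrays, beside which its difference of -0.20 is small. The 3 genes on either side of the stretch all overlapped between groups, as LIPA, IFIT1, IFIT2 and PANK1 also did within it. Of these flanking genes ACTA2 had a difference further below 0 than IFIT1B, SLC16A12, HTR7, ANKRD1 and PANK1. The values thus draw no sharp edge. Before LIPA, CH25H, a cholesterol hydroxylase gene that interferon induces, differed by -0.02, the death receptor gene FAS by -0.11 and the smooth muscle actin gene ACTA2 by -0.29, with overlap in each. After PCGF5, the ubiquitin ligase gene HECTD2 differed by -0.12, PPP1R3C by 0.04 and the tankyrase gene TNKS2 by 0.08, again with overlap. These 13 genes are the stretch that showed the pattern in these same arrays, so no test is given for it.

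**Figure D3:**
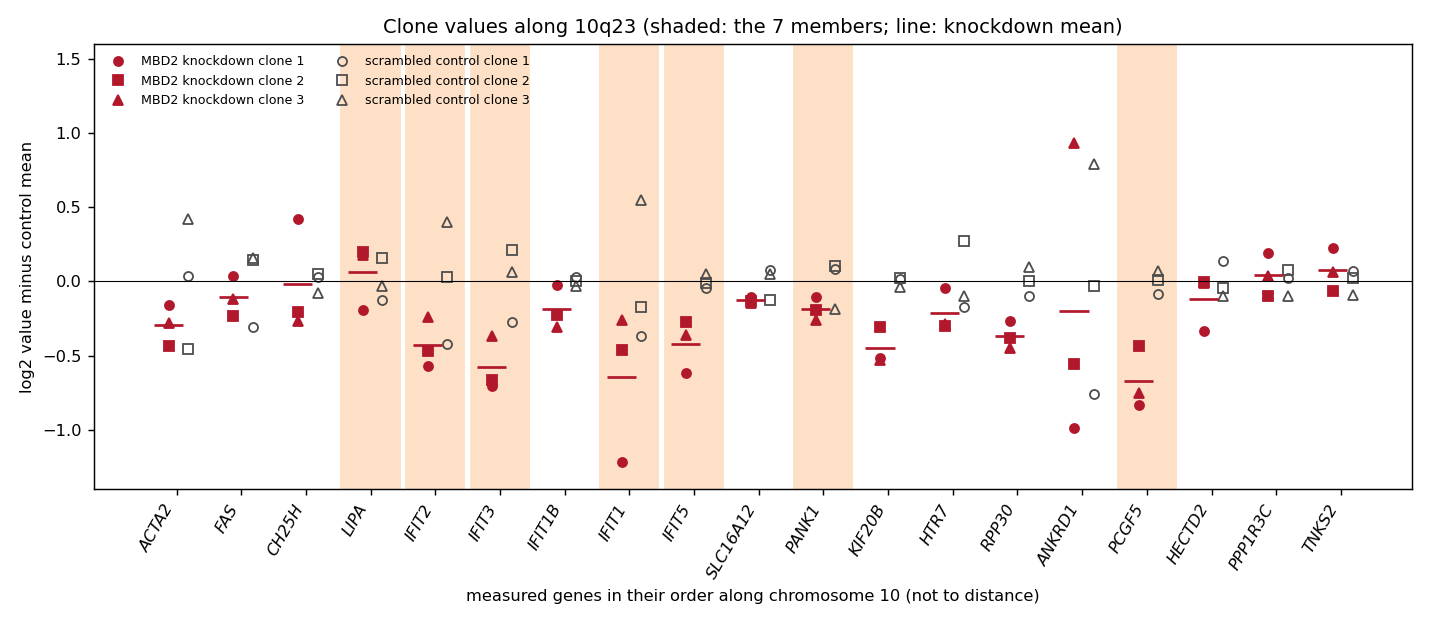
Log2 value minus the control mean (y axis) of each clone for 19 measured genes in their order on chromosome 10, knockdown clones in filled red and control clones in open grey symbols; red lines are knockdown means and shading marks the 7 members. From IFIT2 to PCGF5 every knockdown mean is below 0, as are those of HECTD2 and of the 3 genes before LIPA, with ACTA2 at -0.29. LIPA, PPP1R3C and TNKS2 lie slightly above 0.

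The clone pattern of the IFIT genes was compared with all other genes by the root mean square difference between log2 values over the 6 arrays, each gene centred on its own mean. The mean IFIT profile was -0.52, -0.21 and -0.05 in knockdown clones 1, 2 and 3, against -0.02, 0.27 and 0.52 in control clones 1, 2 and 3. The nearest of 16697 other genes was FAM177A1, at a difference of 0.06, followed by RIGI at 0.10, STYK1 at 0.11 and KAT2B and PARP9 at 0.12 each, against a median of 0.36 over all of them. KAT2B encodes a histone acetyltransferase, and RIGI a sensor of viral RNA that interferon induces. RIGI had 4.86, 5.05 and 5.35 in knockdown clones 1, 2 and 3, against 5.43, 5.55 and 6.06 in control clones 1, 2 and 3, with no overlap.

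RIGI and PARP9, a partner of the ubiquitin ligase DTX3L in antiviral signalling, are the 2 of these 5 that belong to the list of interferon-stimulated genes described next. Among the 100 nearest genes 7 were in that list, where the list makes up 0.34% of all genes compared. With so many genes and 6 arrays, close profiles are found for many patterns, and the measure says nothing of shared control. The members themselves were not equally near. IFIT2, IFIT3, IFIT5 and IFIT1, which enter the profile, stood at 0.11, 0.14, 0.16 and 0.22. PCGF5 stood at 0.20, with 1.13% of the other genes nearer, whereas LIPA at 0.33 and PANK1 at 0.34 had 31.7% and 39.5% of them nearer. The profile contains the knockdown difference that the members were picked by, so these ranks restate that choice for PCGF5 as well and support nothing further. The count of list genes among the nearest 100 rests on the same profile and is likewise a description only.

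**Figure D4:**
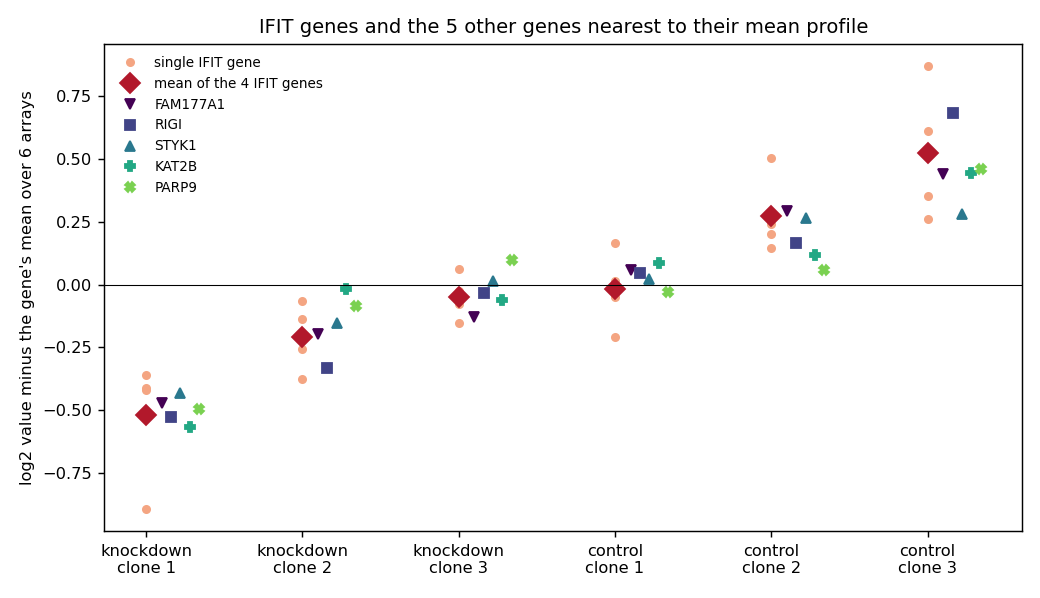
Log2 value minus the gene's mean over 6 arrays (y axis) in each clone, for the 4 IFIT genes (small circles), their mean (diamonds) and the 5 other genes nearest to that mean. The mean is -0.52 in knockdown clone 1 and 0.52 in control clone 3, and knockdown clone 3 and control clone 1 both lie close to 0.

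Interferon-stimulated genes outside the cluster were taken as a list of 61, of which 57 were measured. No member of the list passed limma's threshold over all genes (0 of 57). Of the 57, 36 averaged lower and 21 higher after knockdown, and the median difference was -0.10. At an unadjusted limma p under 0.05 there were 9 lower and 3 higher, against 5.45% and 3.93% of all genes. The 12 became 6 without control clone 3, where the count over all genes fell from 1568 to 1164. Leaving out any other 1 clone gave 8 to 12 list genes. With the dimmest 30% of genes left out, 6 of 40 list genes had an unadjusted limma p under 0.05, against 1302 of 11693 genes kept. RIGI differed by -0.59 (standard error 0.19, limma adjusted p = 0.401). ISG15, a ubiquitin-like modifier, differed by -0.06, the GTPase gene MX1 by 0.06 and the oligoadenylate synthetase gene OAS1 by -0.26. USP18, which removes ISG15 from proteins, differed by -0.11, and the transcription factor genes IRF7 and IRF9 by 0.05 and 0.11. None of these genes except RIGI was without overlap between groups.

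In 9 of the 57 genes all knockdown values lay below all control values and in 2 all lay above, against 8.87% and 6.57% of all genes. The genes that follow were named after their values were seen. The 9 lower genes at an unadjusted p under 0.05 were RIGI and 8 others. SAMD9, an antiviral factor, had the largest difference of the list, -1.19 with a standard error of 0.47 and with overlap between groups. OAS3 and OASL, of the same synthetase family as OAS1, differed by -0.61 and -0.38 (limma adjusted p = 0.315 and 0.347). DDX60 differed by -0.51, the chemokine gene CXCL10 by -0.50, TRIM21 by -0.42, DTX3L by -0.31 and PLSCR1 by -0.27. The 3 higher genes were BST2 and IFITM1, which act against enveloped viruses at the cell membrane and differed by 0.39 each (limma adjusted p = 0.272 and 0.398), and IFI44L, which differed by 0.65 with overlap (standard error 0.28). Several of these genes were near the floor. CXCL10, PLSCR1 and DDX60 lay below the lower quartile on 6 arrays, BST2 and IFI44L on 4, and SAMD9 on 1. Averaged over the list in the same way, the clones stood at -0.21, -0.06 and -0.03 for knockdown 1, 2 and 3, against -0.08, -0.08 and 0.16 in control clones 1, 2 and 3. As with the IFIT genes, knockdown clone 1 is lowest and control clone 3 highest, and here knockdown clones 2 and 3 lie above control clones 1 and 2.

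The genes that carry the interferon signal were split between both directions. Of 16 receptor and signalling genes 8 were lower and 8 higher, with a median of 0.0018, and 0 passed limma's threshold over all genes. At an unadjusted limma p under 0.05 there were 0 lower and 1 higher, against 5.45% and 3.93% of all genes. The higher one was the interferon gamma receptor gene IFNGR2, at 0.33, named after its value was seen. The receptor chain genes IFNAR1 and IFNAR2 differed by 0.15 and -0.03, the kinase gene JAK1 by 0.03 and SOCS1, an inhibitor of the pathway, by 0.02. Of 14 measured RNA and DNA sensor genes and their adaptors 9 were lower, with a median of -0.05, and 0 passed. At an unadjusted limma p under 0.05, 1 was lower and 0 higher, beside the same shares of all genes. The endosomal sensor gene TLR3 differed by -0.02, the mitochondrial adaptor gene MAVS by -0.08 and IRF3, which can act on IFIT promoters directly, by -0.10. The 1 sensor-list gene at an unadjusted p under 0.05 was NFKB1, at -0.53 (limma adjusted p = 0.229), named after its value was seen.

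PCGF5 was set beside a list of genes for the several forms of Polycomb repressive complex 1. The list includes its paralogs and is not limited to partners of PCGF5. Of 20 measured genes of this list 10 were lower and 10 higher, with a median of -0.01. In limma 0 passed the threshold over all genes. At an unadjusted limma p under 0.05 there were 2 lower and 0 higher, where 9.39% of all genes were in either direction. The paralogs PCGF1 and PCGF3 differed by 0.07 and 0.06. The 2 lower genes, named after their values were seen, were YAF2 at -0.30 and AUTS2 at -0.26 (limma adjusted p = 0.415 and 0.476). YAF2 had 6.14, 6.40 and 6.44 in knockdown clones 1, 2 and 3, against 6.60, 6.60 and 6.66 in control clones 1, 2 and 3. Its groups do not overlap, and 8.87% of all genes were lower without overlap.

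For PANK1, 5 of 8 other coenzyme A genes were lower, with a median of -0.05, and 0 passed limma's threshold. At an unadjusted limma p under 0.05 there were 0, against 9.39% of all genes. PANK2 and PANK3, which catalyse the same step, differed by -0.09 and -0.10, and COASY, of the last steps of the pathway, by -0.31, with a standard error of 0.28. For LIPA, 7 of 16 lysosomal and cholesterol-handling genes were lower and 9 higher, with a median of 0.02, and 0 passed limma's threshold. At an unadjusted limma p under 0.05 there were 1 lower, NPC2, and 1 higher, against 5.45% and 3.93% of all genes. The higher one was the lysosomal glucosidase gene GAA, at 0.26, named after its value was seen. NPC1 and NPC2, which pass the cholesterol freed by LIPA out of the lysosome, lay on opposite sides, at 0.32 (limma adjusted p = 0.579) and -0.27 (limma adjusted p = 0.399). Both were without overlap between groups, as were 6.57% of all genes on the higher side and 8.87% on the lower. SOAT1, which esterifies cholesterol again, differed by 0.20, less than its spread among the knockdown clones.

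**Figure D5:**
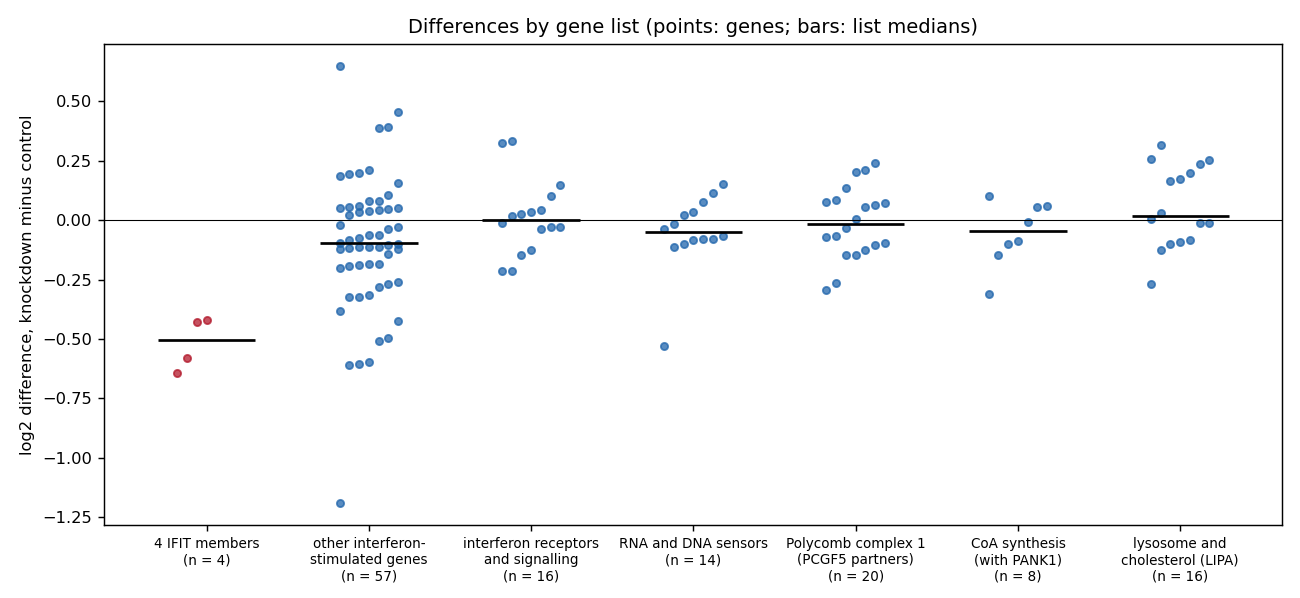
Log2 difference, knockdown minus control (y axis), of each measured gene in the 4 IFIT members and 6 related lists, with black bars at the list medians. The IFIT members, picked with their lower values known, lie between -0.64 and -0.42. The medians of the other lists lie between -0.10 and 0.02, and their single genes reach from -1.19 to 0.65.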

How the data were processed

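Log2 expression values per array feature were deposited by the authors for 6 clones, 1 array each. Per the submitters' processing notes the tools were RMA (background correction, normalization between arrays and a summary over probes), oligo and limma; for their versions and for any filter the labels say nothing. The log2 scale was taken from the range of the values and from RMA. Of 19712 features 17334 carry 1 gene symbol, and for a gene with several, the one brightest on average stood for it, giving 16704 genes, none filtered out. The groups were compared in limma 3.58.1 (lmFit, then eBayes; R 4.3.3) with no covariates and Benjamini-Hochberg adjustment over all genes at a threshold of 0.05, tested on simulated data. Standard errors come from that fit, and differences are knockdown minus control. Gene order came from RefSeq (GRCh38.p14), in Python 3.11.15. The members, gene lists and tests were chosen with earlier results of these data known. Text names MBD2, the members, their neighbours, list genes marked beforehand, and the 5 genes nearest in pattern; others are said to be named after their values were seen. Listed genes without a feature of 1 symbol were not analysed here. Whether clones came from separate cultures beyond their selection is not stated.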

Additional observations from a re-analysis of the deposited data

How the results depend on the processing

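With the dimmest 30% of genes left out (which removes all 4 IFIT genes), trend and robust settings, median centring, the mean of all features or the replicate number as a block, 0 genes passed limma's threshold, as with all arrays. Repeated quantile normalization gave 1 gene, ZNF487 (limma adjusted p = 0.0482), and array weights, with 0.252 for knockdown clone 1 and 3.43 for knockdown clone 2, gave 325. Leaving out each clone gave 0 to 70 genes, with 70 without knockdown clone 1 and 7 without control clone 1; the cause was not tested. Among interferon-stimulated genes outside the cluster 1 passed with array weights, BST2 as higher (limma adjusted p = 0.0297), and 0 under the other alternatives. The median over the 7 members lay between -0.64 and -0.36 with 1 clone left out and between -0.46 and -0.43 under other scalings, weights, the block and the feature mean. Of 77 values of single members under 11 alternatives, 75 kept their sign; both exceptions are LIPA, at -0.00015 without control clone 1 and -0.0051 without knockdown clone 2. Same-numbered clones correlated in their deviations at -0.0252, -0.189 and 0.174, and differently numbered ones at -0.165 to 0.218. Deviations within so small a group are tied to one another, so these values cannot decide whether same-numbered clones were handled together. The labels give only the shared number. The block moved genes at an unadjusted p under 0.05 to 1576, against 1568 without it.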
